A study of Mus musculus with 32 samples.

Results

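Interleukin 2 and the chains of its receptor were followed through all 11 groups of a study of helper T cell stimulation. The genes were Il2 (the cytokine), Il2ra (the alpha chain, CD25), Il2rb (the beta chain, CD122) and Il2rg (the common gamma chain), matched by the gene symbol of the platform annotation. Of these 4 genes, 3 were measured, among 22180 genes on the 48 h arrays and 17097 genes on the 72 h arrays; Il2rg was not analysed here. Il2 had 1 probe set on each platform, Il2ra had 1 at 48 h and 2 at 72 h, and Il2rb had 1 at 48 h and 3 at 72 h.

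CD4+ T cells came from lymph nodes of Balb/c DO11.10 TCR transgenic mice, in which the T cell receptor recognises an ovalbumin (OVA) peptide, and every culture held peritoneal macrophages elicited with thioglycollate as the antigen-presenting cells. Viable CD4+ singlets were sorted after 48 h or 72 h. The 48 h groups with OVA peptide, of 3 arrays each, were cells on macrophages exposed to the cytokines IL-10 and IL-4, at 10 ng/mL of either, and washed before the T cells were added, cells in low arginine, low leucine or low lysine medium (1% of the usual content of that amino acid), and cells in full medium on untreated macrophages. Without peptide, 2 arrays of low arginine, 3 of low leucine and 3 of low lysine cultures were made at 48 h. At 72 h, 3 arrays each held cells with peptide on pretreated macrophages, cells with peptide on untreated macrophages, and cells without peptide, all in full medium. The 48 h and 72 h arrays are different platforms, so levels were never compared between the times. The labels do not say whether replicates were separate cultures or animals, so p-values measure the spread between these arrays, which may be technical.

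Antigen recognition, together with costimulation through CD28, drives Il2 transcription in T cells through NFAT, AP-1 and NF-kappaB factors. The secreted cytokine binds a receptor in which the alpha chain raises the affinity, while the beta and gamma chains carry the signal through the kinases JAK1 and JAK3 to STAT5. STAT5 in turn activates genes such as Cish, Socs1, Pim1 and Il2ra itself, and IL-2 signalling limits further Il2 transcription through factors that include Blimp-1, the product of Prdm1. Activated T cells are the main source of IL-2, and regulatory T cells carry CD25 without making much of the cytokine.

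The promoter windows of Il2 and Il2ra are shown because antigen raised both genes, while differences between the amino acids passed the test for Il2 and not for Il2ra. Each runs from 250 bases before to 50 bases after the gene's start in RefSeq (build GRCm38.p6), printed 5' to 3' along the gene's strand, and capitals mark the NFAT core letters GGAAA or their complement TTTCC. Sequences were found for Il2 (chr3:37125905-37126204, minus strand) and Il2ra (chr2:11642542-11642841, plus strand).
Il2: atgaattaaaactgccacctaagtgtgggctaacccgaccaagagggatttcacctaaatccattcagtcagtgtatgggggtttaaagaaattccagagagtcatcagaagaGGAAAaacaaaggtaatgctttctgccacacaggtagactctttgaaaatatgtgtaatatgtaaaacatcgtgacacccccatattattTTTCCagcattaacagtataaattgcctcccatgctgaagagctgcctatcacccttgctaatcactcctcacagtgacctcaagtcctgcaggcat
Il2ra: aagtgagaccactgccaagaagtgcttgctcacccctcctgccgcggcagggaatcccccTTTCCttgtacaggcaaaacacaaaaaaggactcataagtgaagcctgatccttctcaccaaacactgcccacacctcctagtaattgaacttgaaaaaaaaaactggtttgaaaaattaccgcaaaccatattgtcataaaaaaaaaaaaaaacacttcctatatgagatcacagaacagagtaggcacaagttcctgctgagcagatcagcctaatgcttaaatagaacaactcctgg
The Il2 window held GGAAA at 2 positions, -137 to -133 on the printed strand and -47 to -43 on the other, and the TATA box letters TATAAA at -31 to -26. The Il2ra window held GGAAA at 1 position, -190 to -186 on the other strand, and no TATAAA. Neither window held TGANTCA (AP-1), TTCNNNGAA (STAT) or TGATGNAA (ATF4 with C/EBP) on either strand. Sites with other letters or outside the windows were not searched, so a missing match does not show that a factor has no site. Of 32851 promoter windows of the same length, 61.3% held GGAAA, 13.6% TATAAA, 7.81% TGANTCA, 8.3% TTCNNNGAA and 3.97% TGATGNAA, so the GGAAA matches are common letters and show no bound factor.

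All levels below are log2 expression values made by the authors with RMA, and all differences are log2 fold changes ± SE from limma, called at a Benjamini-Hochberg adjusted p below 0.05 over all genes of the comparison. The 48 h arrays had medians of 5.58 to 5.85 over genes and correlated with each other at 0.86 to 0.9815. Those of 72 h had medians of 4.61 to 5.35 and correlated at 0.885 to 0.9941, and none was a copy of another. The mean level of the CD4 T cell genes on the platforms (8 of 10 listed genes, Cd4 and Cd3e among them) was 10.09 to 10.98 on every 48 h array and 9.33 to 10.79 on every 72 h array.

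Antigen raised all 3 genes in each of the 5 comparisons with cells that had seen no peptide, and the measured rise of the alpha chain was nearly the same whichever amino acid was short. The files hold no detection calls. Without antigen, Il2 and Il2ra lay near or below the array medians (5.75 to 5.85 at 48 h, 5.09 to 5.35 at 72 h). Il2rb lay near the medians at 72 h and mostly above them at 48 h (5.72 to 6.52). Where a gene was not above background without antigen, its difference is only a lower bound, so no folds over unstimulated cells are given. Il2ra was between 11.29 and 11.45 with antigen in the low media, against 5.52 to 6.19 without antigen. Its rise was 5.50 ± 0.15 in low arginine (limma adjusted p = 1.18e-17), 5.61 ± 0.13 in low leucine (adjusted p = 6.71e-19) and 5.53 ± 0.13 in low lysine (adjusted p = 9.01e-19). Of all genes, 29.4% were called in low arginine, 41.3% in low leucine and 31% in low lysine, so a call by itself says little here.

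The beta chain rose in all 3 low media too. Il2rb was between 9.61 and 10.81 with antigen in the low media, against 5.72 to 6.52 without it. The rise was 4.44 ± 0.22 in low arginine (adjusted p = 9.53e-13), 3.97 ± 0.20 in low leucine (adjusted p = 7.15e-13) and 3.86 ± 0.20 in low lysine (adjusted p = 9.62e-13). The effect of antigen on Il2rb did not pass the test for a difference between the media (limma moderated F test, adjusted p = 0.713), nor did that on Il2ra (adjusted p = 0.976). For Il2ra the largest of the pairwise differences was -0.10 (low arginine minus low leucine, 95% interval -0.51 to 0.30).

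Il2 itself was different, because the size of its rise depended on which amino acid was short. In low arginine Il2 was at 7.83, 8.02 and 8.86 with antigen, against 5.69 and 5.08 without. In low leucine it was at 9.92, 9.85 and 10.12 with antigen, against 5.38, 4.85 and 5.49 without. In low lysine it was at 10.55, 10.51 and 11.02 with antigen, against 4.90, 5.68 and 4.64 without. Arrays with and without antigen did not overlap in any medium, and the low arginine arrays with antigen lay nearest to the unstimulated ones.

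The rise of Il2 was 2.85 ± 0.32 in low arginine (adjusted p = 3.55e-07), 4.73 ± 0.29 in low leucine (adjusted p = 1.56e-11) and 5.61 ± 0.29 in low lysine (adjusted p = 9.62e-13). The antigen effect on Il2 differed between the 3 media (F = 21.1, adjusted p = 0.0156), a test that called 0.149% of all genes. It was smaller in low arginine than in low lysine (difference -2.76 ± 0.43, adjusted p = 0.00617; 0.144% of genes called). The difference between low arginine and low leucine was -1.87 ± 0.43 (adjusted p = 0.167) and that between low leucine and low lysine -0.89 ± 0.40 (adjusted p = 0.544), and neither passed (0.0135% and 0.0721% of genes called). With the replicate number as a block, low arginine minus low leucine was -1.90 (adjusted p = 0.156) with all groups fitted, and it passed with only the 4 groups concerned (-2.05, adjusted p = 0.0346). That fit, added after seeing the data, was the only 1 of 21 alternatives in which this difference passed. In the groups without antigen, equal replicate numbers do not mark equal runs of submitter numbers, so they may not pair these arrays. Without replicate 1 of the low arginine cultures that had no antigen, which leaves 1 array in that group, the F test's adjusted p was 0.142 and that of the low arginine against low lysine difference 0.139. The F test also lost its call without low arginine replicate 1 or 2 with antigen (adjusted p = 0.0508 and 0.0526).

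Without antigen, none of the 3 genes passed the test for a difference between the media. Group means were 5.38 ± 0.43 (SD, n = 2), 5.24 ± 0.34 (SD, n = 3) and 5.08 ± 0.54 (SD, n = 3) for Il2 in low arginine, leucine and lysine. The F tests over these groups had adjusted p-values of 0.957 for Il2, 0.963 for Il2ra and 0.955 for Il2rb, and called 0.00902% of all genes.

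Cell type markers moved with antigen as well. The mean level of 14 macrophage genes at 48 h was 5.68 to 6.25 on low-medium arrays with antigen, against 6.44 to 6.79 without, and 6, 9 and 6 of the 14 were lower with antigen in low arginine, leucine and lysine. Of 6 regulatory T cell genes, 5 were higher with antigen in each medium, Foxp3 among them. The mean of 12 mesothelial and stromal genes was 5.03 to 5.44 with antigen, against 5.48 to 6.30 without, and 2, 6 and 1 of the 12 were lower in low arginine, leucine and lysine. Of 8 CD4 T cell genes, 5, 3 and 3 were higher. Over all genes, 12.2%, 19.5% and 12.6% were lower with antigen in low arginine, leucine and lysine. The shares that were higher were 17.2%, 21.8% and 18.4%. The mesothelial and stromal counts in low arginine and low lysine lay near the shares that were lower. No marker is at 0 on the RMA scale, and their part in the rises of the 3 genes was not tested. In sorted bulk samples, more RNA per cell and more cells that express a gene cannot be told apart.

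**Figure D1:**
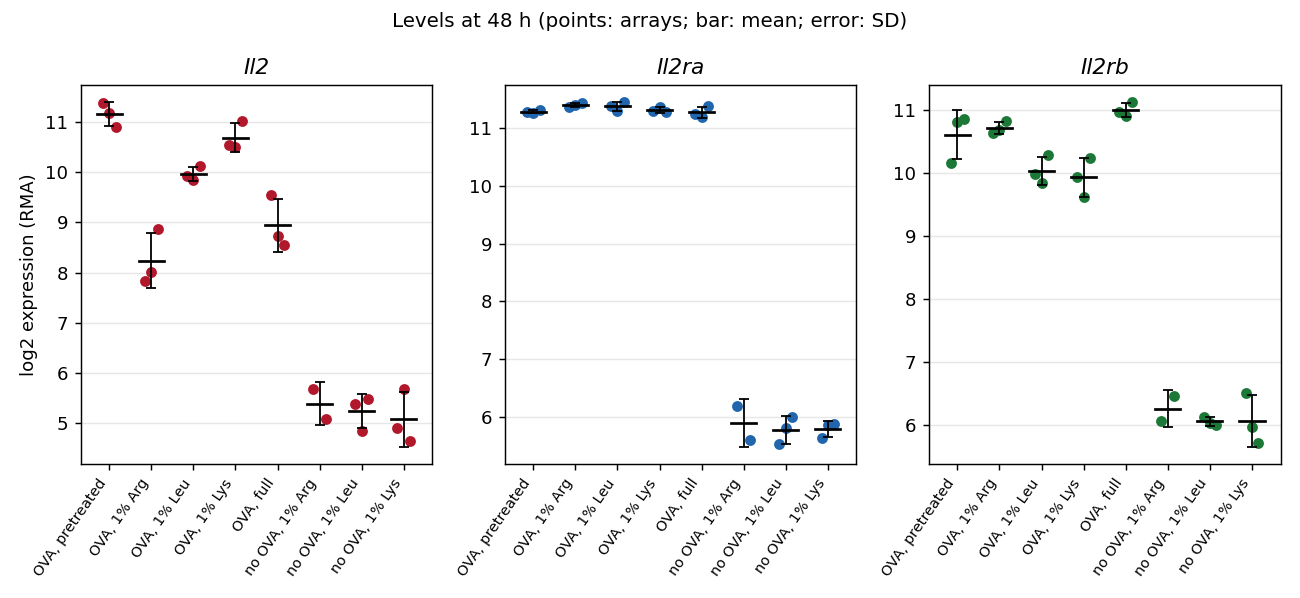
Log2 expression (RMA, vertical axis, own scale per panel) of Il2, Il2ra and Il2rb on each 48 h array, with group mean and SD; OVA marks antigen and 1% the short amino acid. Il2ra sits between 11.19 and 11.45 in all 15 arrays with antigen, while Il2 runs from 7.83 to 11.39 across the same arrays; levels cannot be compared between panels.

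Among cells given antigen at 48 h, Il2 was the most variable of the 3 genes and its order of group means was pretreated macrophages 11.16, low lysine 10.69, low leucine 9.96, full medium 8.94 and low arginine 8.24. No pair of neighbours in that order passed the test: the steps were 0.47 ± 0.29 between pretreated macrophages and low lysine (adjusted p = 0.454), -0.73 ± 0.29 for low leucine minus low lysine (adjusted p = 0.202), 1.02 ± 0.29 for low leucine minus full medium (adjusted p = 0.0588), and -0.71 ± 0.29 for low arginine minus full medium (adjusted p = 0.194). Every pair further apart in the order passed.

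Low lysine raised Il2 above full medium, and low arginine left it below the other low media. With lysine short the 3 arrays were at 10.55, 10.51 and 11.02, against 9.54, 8.74 and 8.55 in full medium, with no overlap. The difference was 1.75 ± 0.29 (3.36-fold, adjusted p = 0.000643; 8.73% of all genes called). Low leucine arrays, at 9.92, 9.85 and 10.12, also lay above every full-medium array, but that difference of 1.02 ± 0.29 missed the threshold (2.72% of genes called). The low arginine arrays, at 7.83, 8.02 and 8.86, overlapped the full-medium ones, with an interval for the difference of -1.30 to -0.11 before adjustment (4.67% called). Without full medium replicate 1, whose Il2 level of 9.54 was the highest of its group, low leucine against full medium was 1.32 (adjusted p = 0.018).

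Full-medium arrays belong to other runs of consecutive submitter numbers than the low-medium arrays, so medium and run cannot be told apart in these comparisons with full medium. The pretreated arrays share the runs of the full-medium ones. The low media share their runs. There Il2 was lower in low arginine than in low leucine (difference -1.73 ± 0.29, 3.31-fold, adjusted p = 0.00426; 0.712% of genes called). It was also lower in low arginine than in low lysine (-2.45 ± 0.29, 5.48-fold, adjusted p = 4.02e-05; 3.22% of genes called). By size, Il2 ranked 7th in the comparison with low leucine and 4th in that with low lysine among 22180 genes. With the submitter run as a block, the adjusted p-values were 0.00377 and 5.71e-05.

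Il2rb ran in another order among the antigen groups: full medium 10.99, low arginine 10.71, pretreated macrophages 10.60, low leucine 10.03 and low lysine 9.93. Low leucine had 9.98, 9.84 and 10.27, and low lysine 9.93, 9.61 and 10.23, against 10.96, 10.90 and 11.12 in full medium. The groups did not overlap, and the receptor chain fell by 0.96 ± 0.20 on the log2 scale in low leucine (1.95-fold lower, adjusted p = 0.00573) and by 1.06 ± 0.20 in low lysine (2.09-fold lower, adjusted p = 0.0017). Low arginine had 10.63, 10.67 and 10.81, below all full-medium arrays but the difference of -0.29 ± 0.20 did not pass (adjusted p = 0.533).

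Between the low media, Il2rb was higher in low arginine than in low lysine by 0.78 ± 0.20 (adjusted p = 0.0276), a call lost in 5 of 6 fits that left out 1 array (adjusted p up to 0.168). The low arginine arrays also lay above all low leucine arrays, by 0.67 ± 0.20 (adjusted p = 0.135). The replicate numbers pair these last groups, and with the number as a block and only both groups fitted the adjusted p was 0.000407. Low leucine and low lysine overlapped in Il2rb (0.10 ± 0.20, 95% interval -0.30 to 0.51, adjusted p = 0.84), a comparison that called 1.88% of genes.

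Il2ra stayed within a narrow band in the same 15 arrays, 11.19 to 11.45, with group means from 11.28 in full medium to 11.40 in low arginine. None of its differences between antigen groups at 48 h passed, and the 95% interval that reached farthest from 0 ended at 0.40 (low arginine minus full medium, 0.13 ± 0.13). The highest value of any probe set on the 48 h arrays was 13.74, but it belongs to another probe set. Whether the Il2ra signal was near the ceiling of its own probe set was not tested.

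Markers of cell types also differed between the media. The mean of 5 B cell genes was 7.10, 6.30 and 5.81 on the 3 low lysine arrays, against 5.55 to 5.67 in full medium, and 4 of the 5 were called higher. The mean of 7 CD8 T and NK cell genes was 5.42 to 5.52 in low arginine, 5.40 to 5.64 in low leucine and 5.76 to 5.88 in low lysine, against 5.92 to 6.02 in full medium. Of these, Eomes was lower than in full medium in low arginine, low leucine and low lysine, and Cd8a in low arginine. Cd8b1 was higher in low lysine than in full medium. Cd8b1 and Cd8a were lower in low arginine than in low lysine, and Eomes was lower in low leucine than in low lysine. The mean of 8 CD4 T cell genes was 10.81 to 10.98 in low arginine, 10.89 to 10.98 in low leucine and 10.47 to 10.75 in low lysine, against 10.57 to 10.66 in full medium, with 3, 2 and 0 called higher. Over all genes, 1.51%, 1.15% and 2.49% were higher than in full medium in low arginine, leucine and lysine. The shares that were lower were 3.17%, 1.56% and 6.24%. Between low arginine and low lysine 3.22% of all genes were called, and between low leucine and low lysine 1.88%. The part of the marker signals in the differences of Il2 and Il2rb was not tested.

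**Figure D2:**
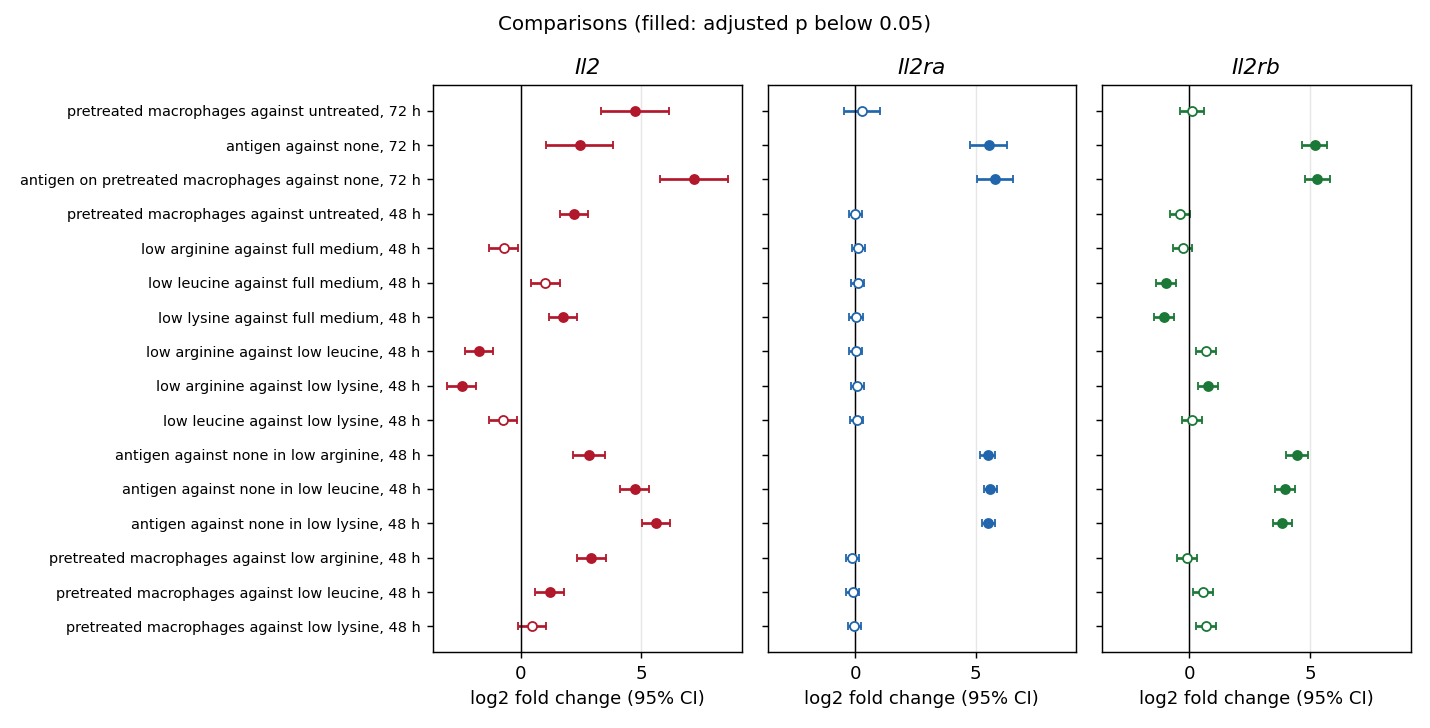
Log2 fold change (horizontal axis, 95% interval, same axis in all panels) of Il2, Il2ra and Il2rb in the 16 comparisons, group named first over group named second; filled points passed the adjusted p threshold. Il2ra passed in the 5 comparisons with cells without antigen and in none of the other 11, and Il2 also passed with pretreated macrophages (4.74 at 72 h, 2.22 at 48 h) and between media.

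Macrophages that had met IL-4 and IL-10 raised Il2 in the T cells at both times, while neither receptor chain passed the test. At 72 h, Il2 was at 11.54, 10.08 and 10.95 on pretreated macrophages, against 7.96, 5.21 and 5.18 on untreated ones. The groups did not overlap, and 1 untreated array, replicate 1, was well above the other 2. The difference was 4.74 ± 0.64 (26.7-fold, 95% interval 10.1-fold to 70.6-fold, adjusted p = 0.00181), the 3rd largest among 17097 genes, where 9.69% of genes were called. Without the untreated replicate 1 it was 5.66 (adjusted p = 6.42e-05).

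At 48 h, Il2 was at 11.39, 11.18 and 10.91 on pretreated macrophages, against 9.54, 8.74 and 8.55 on untreated ones, again without overlap. The rise was 2.22 ± 0.29 (4.65-fold, 95% interval 3.08-fold to 7.02-fold, adjusted p = 2.96e-05), the 24th largest of 22180, with 8.64% of genes called. With the submitter run as a block its adjusted p was 3.99e-05.

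For the receptor chains the intervals spanned 0. Il2ra at 48 h differed by 0.01 ± 0.13 (95% interval -0.26 to 0.28, adjusted p = 0.983). At 72 h it had 8.88, 9.81 and 9.60 on pretreated macrophages, against 8.79, 9.98 and 8.69 on untreated ones (0.28 ± 0.34, 95% interval -0.48 to 1.03, adjusted p = 0.71). Its other probe set had 8.31 to 8.38, against 8.52 to 9.15, so the probe sets disagreed in sign.

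Il2rb at 48 h was at 10.15, 10.80 and 10.85 on pretreated macrophages, against 10.96, 10.90 and 11.12 on untreated ones. All pretreated arrays were lower, but the difference of -0.39 ± 0.20 did not pass (adjusted p = 0.276). At 72 h it had 10.25, 10.32 and 10.67, against 9.87, 10.79 and 10.26, which overlapped (0.11 ± 0.23, 95% interval -0.41 to 0.62, adjusted p = 0.844). Its other probe sets overlapped too, with 7.04 to 8.08 against 6.48 to 7.26 and with 8.29 to 8.69 against 7.67 to 8.45.

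Pretreated and low-medium arrays also belong to different runs, so run and condition cannot be told apart between them. Set beside the low media at 48 h, pretreated macrophages gave more Il2 than low arginine (2.92 ± 0.29, 7.59-fold, adjusted p = 2.22e-06; 3.37% of genes called) and than low leucine (1.20 ± 0.29, 2.29-fold, adjusted p = 0.013; 5.92% called). The second call was lost without pretreated replicate 1 (adjusted p = 0.0653) or without low leucine replicate 2 (adjusted p = 0.0585). Against low lysine the arrays overlapped, and the difference of 0.47 had a 95% interval of -0.12 to 1.06 (3.53% called). Il2rb was 0.57 ± 0.20 above low leucine (adjusted p = 0.0948) and 0.67 ± 0.20 above low lysine (adjusted p = 0.0591) with pretreated macrophages, and neither passed. Without pretreated replicate 1, whose Il2rb level was the lowest of its group, these were 0.79 (adjusted p = 0.0246) and 0.90 (adjusted p = 0.0112).

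Cell type markers also differed in the pretreated groups. The mean of the 14 macrophage genes was 6.43 to 6.78 on pretreated arrays at 48 h, against 6.08 to 6.17 on untreated ones, with 4 of 14 called higher (Mrc1, Cd68, Itgam and Adgre1). At 72 h it was 3.80 to 4.03, against 3.58 to 3.64, with 1 of 14 called (Cd14). Of the regulatory T cell genes, Foxp3 and Ikzf4 were higher at 72 h (2 of 5) and Ikzf4 at 48 h (1 of 6). The mean of 5 dendritic cell genes at 48 h was 6.35 to 6.74, against 6.08 to 6.28, with Itgax and Ccr7 higher. The others, Flt3, Zbtb46 and Xcr1, were not called. Ccr7 had group means of 10.33 to 11.43 over all 48 h groups, against 4.33 to 5.57 for Flt3, Zbtb46 and Xcr1. The mean of the 7 CD8 T and NK cell genes at 48 h was 5.61 to 5.72, against 5.92 to 6.02, with Eomes higher and Cd8a and Klrk1 lower. Against the low media, 3, 6 and 5 of the 14 macrophage genes were higher on pretreated arrays than in low arginine, leucine and lysine. Over all genes, 2.71% were higher and 5.93% lower on pretreated than on untreated macrophages at 48 h. At 72 h these shares were 3.78% and 5.91%, so 1 call among 14 macrophage genes says little. Against low arginine, leucine and lysine, 3.37%, 5.92% and 3.53% of all genes were called. The part of the marker signals in the Il2 difference was not tested.

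At 72 h antigen on untreated macrophages raised Il2 and both receptor genes. Il2 was at 7.96, 5.21 and 5.18 with antigen, against 3.57, 3.73 and 3.72 without (2.44 ± 0.64, adjusted p = 0.0098; 38.2% of genes called). Without the antigen replicate 1 the rise was 1.52. Il2ra was at 8.79, 9.98 and 8.69, against 3.41, 3.67 and 3.78 (5.53 ± 0.34, adjusted p = 5.91e-07), and Il2rb at 9.87, 10.79 and 10.26, against 5.39, 5.04 and 4.89 (5.20 ± 0.23, adjusted p = 1.02e-07).

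On pretreated macrophages the rise over cells without antigen was 7.18 ± 0.64 for Il2 (adjusted p = 7.29e-06), 5.81 ± 0.34 for Il2ra and 5.31 ± 0.23 for Il2rb (adjusted p = 5.08e-07 and 8.43e-08; 32.5% of genes called). These comparisons share their unstimulated arrays. The other probe sets of the receptor chains were likewise all lower without antigen: Il2ra 3.53 to 4.49 and Il2rb 3.54 to 4.55 and 3.21 to 3.43.

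The unstimulated 72 h arrays carried RNA of other cells. The mean of 12 mesothelial and stromal genes was 3.95 to 4.38 with antigen and 4.49 to 6.09 with antigen on pretreated macrophages, against 9.68 to 10.11 without antigen. All 12 were called in both comparisons, where 38.2% and 32.5% of all genes were called. The 14 macrophage genes averaged 3.58 to 3.64 and 3.80 to 4.03, against 4.93 to 6.70. Array medians were 0.51 lower with antigen, and centring each array on its median moved the Il2 rise to 2.95. The part of the other cells' RNA in these rises was not tested.

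**Figure D3:**
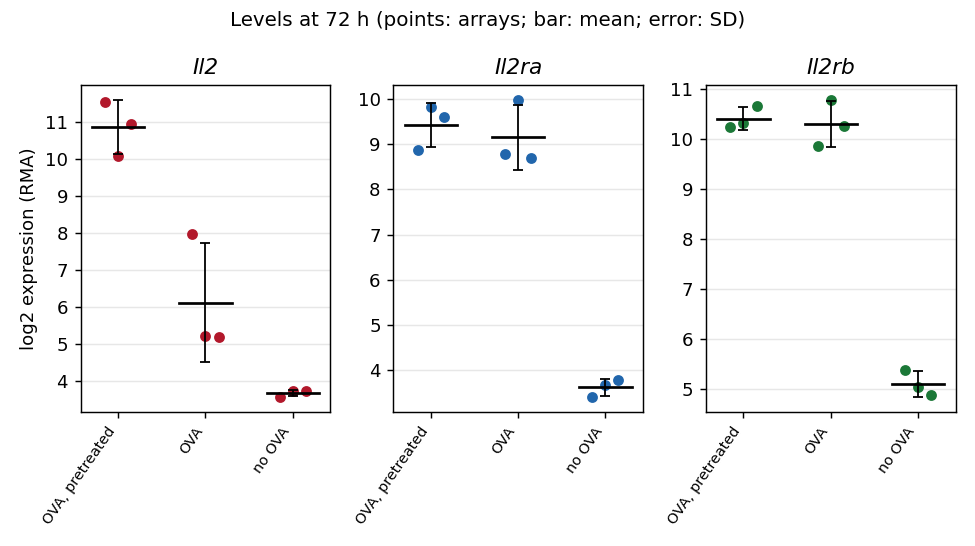
Log2 expression (RMA, vertical axis, own scale per panel) of Il2, Il2ra and Il2rb on each 72 h array, with group mean and SD. Il2 separates pretreated macrophages (10.08 to 11.54) from untreated ones (5.18 to 7.96), while both receptor chains overlap between these groups and are low without antigen.

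Genes downstream of the receptor moved only in part with pretreated macrophages. Of 17 measured STAT5 target genes at 72 h, 5 rose and 1 fell, with a median difference of 0.54, against 0.02 over all genes, of which 3.78% rose and 5.91% fell. Pim1 and Pim2, survival kinases, rose by 1.36 ± 0.16 (adjusted p = 0.000688) and 1.31 ± 0.22 (adjusted p = 0.00597), and the cyclin gene Ccnd2 by 1.01 ± 0.16 (adjusted p = 0.00512). Gzmb, which encodes the cytotoxic protease granzyme B, went the other way, with a level of 10.93 against 12.44 (-1.51 ± 0.28, adjusted p = 0.00901). Cish and Socs1, feedback inhibitors of cytokine signalling, were the others that rose.

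At 48 h, 3 of 18 STAT5 target genes rose and 1 fell on pretreated macrophages, with a median of 0.10, against 0.01 over all genes, of which 2.71% rose and 5.93% fell. Ccnd2 rose again (0.62 ± 0.13, adjusted p = 0.0035), with Bcl2 (0.61 ± 0.12, adjusted p = 0.00202) and Mcl1 (0.50 ± 0.11, adjusted p = 0.00527), both inhibitors of apoptosis, and Gzmb fell by 1.72 ± 0.46 (adjusted p = 0.0201). In the low media against full medium, 1 rose and 2 fell in low arginine, 0 rose and 3 fell in low leucine, and 1 rose and 5 fell in low lysine. Of all genes, 1.51% rose and 3.17% fell in low arginine, 1.15% and 1.56% in low leucine, and 2.49% and 6.24% in low lysine. The share of these calls that were higher depended on scaling: after quantile normalization it was 49.2% for pretreated macrophages (31.3% as deposited), 48.8% for low arginine (32.2%), 52.6% for low leucine (42.5%) and 45.2% for low lysine (28.6%). Socs3, a feedback inhibitor, fell by 0.91 ± 0.20 in low leucine (adjusted p = 0.0101) and by 1.42 ± 0.20 in low lysine (adjusted p = 0.00012). Gzmb fell by 2.17 ± 0.46 in low arginine (adjusted p = 0.00599) and by 3.30 ± 0.46 in low lysine (adjusted p = 0.000122), while in low leucine its difference of -1.67 did not pass (adjusted p = 0.0543).

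Antigen moved most of this list: 13 of 18 rose in low arginine, 12 in low leucine and 11 in low lysine, with 2 falling in each, and 13 of 17 rose and 2 fell at 72 h. Over all genes the shares were 17.2% up and 12.2% down in low arginine, 21.8% and 19.5% in low leucine, 18.4% and 12.6% in low lysine, and 20.7% and 17.4% at 72 h. Cish rose by 2.95 ± 0.15 in low arginine, 2.68 ± 0.13 in low leucine and 3.12 ± 0.13 in low lysine (adjusted p = 1.40e-12, 7.90e-13 and 7.77e-14). Of 13 measured IL-2 signalling genes, 3 rose and 1 fell with antigen in low arginine, 5 rose and 2 fell in low leucine, and 4 rose and 2 fell in low lysine, while at 72 h 3 of 14 rose and 3 fell. With pretreated macrophages 0 of 14 measured IL-2 signalling genes were called by limma at 72 h (2 at an unadjusted p below 0.05) and 1 of 13 at 48 h, the kinase gene Akt1 (-0.63 ± 0.16, adjusted p = 0.0154). Over all genes, 9.69% were called at 72 h and 8.64% at 48 h. Gab2, a docking protein, was higher in low arginine (1.33 ± 0.23), low leucine (1.66 ± 0.23) and low lysine (0.85 ± 0.23) than in full medium (adjusted p = 0.000914, 8.80e-05 and 0.0213).

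Among genes that act on Il2 transcription, antigen raised 9 of 16 activators in low arginine, 9 in low leucine and 8 in low lysine, and lowered 0, 2 and 1. Of all genes, 17.2%, 21.8% and 18.4% rose and 12.2%, 19.5% and 12.6% fell in these media. At 72 h antigen raised 4 of 17 activators and lowered 6, where 20.7% of all genes rose and 17.4% fell. Of 8 repressors, 5 rose in each low medium (1 fell in low lysine) and 4 at 72 h. On pretreated macrophages against no antigen, 5 of 17 activators rose and 2 fell, and 4 of 8 repressors rose. Of all 17097 genes in that comparison, 2892 rose and 2665 fell.

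Of 17 measured activators at 72 h, 3 rose and 0 fell with pretreated against untreated macrophages (3.78% of all genes rose): Rela, an NF-kappaB subunit (0.92 ± 0.21, adjusted p = 0.0223), Nfatc1 (0.81 ± 0.23, adjusted p = 0.0494) and the kinase gene Prkcq (0.53 ± 0.13, adjusted p = 0.0279). At 48 h it was 2 of 16 (2.71% of all genes rose), Rel, another NF-kappaB subunit (0.56 ± 0.15, adjusted p = 0.0169), and Prkcq (0.48 ± 0.11, adjusted p = 0.00803). Of the 8 repressors, Foxp3 rose at 72 h (1.22 ± 0.28, adjusted p = 0.0202) and Egr3 fell at 48 h (-0.99 ± 0.25, adjusted p = 0.0116).

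In low arginine, 3 of 16 activators rose and 1 fell against full medium (1.51% of all genes rose and 3.17% fell). The repressors Ikzf3 (0.75 ± 0.20, adjusted p = 0.0331) and Foxp3 (0.62 ± 0.17, adjusted p = 0.0372) rose. Foxp3 had means of 8.79 in low arginine, 8.47 in low leucine and 8.67 in low lysine, against 8.17 in full medium. Against full medium 2.72% of all genes were called in low leucine and 8.73% in low lysine, and no repressor was among them. The part of the activators and repressors in the Il2 levels was not tested. In low leucine 5 activators rose and 0 fell (1.15% and 1.56% of all genes), among them the AP-1 gene Fosl2 (1.06 ± 0.19, adjusted p = 0.00182). In low lysine Rela rose and Jun fell (2.49% and 6.24% of all genes). Between low arginine and low leucine 0 of 16 activators and 0 of 8 repressors were called by limma (2 and 1 at an unadjusted p below 0.05). Only 0.712% of all genes were called there, so 0 calls in lists this short say little. Between low arginine and low lysine, Fosl2 (1.01 ± 0.19, adjusted p = 0.00378) and Ikzf3 (1.05 ± 0.20, adjusted p = 0.00422) were higher in low arginine.

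Of 5 ligand genes of the shared receptor chains, 0 were called by limma with pretreated macrophages at either time (1 at each time at an unadjusted p below 0.05). Over all genes, 9.69% were called at 72 h and 8.64% at 48 h. Against full medium, 0 of the 5 ligand genes were called in low arginine (0 unadjusted), 2 in low leucine (Il21 and Il4, both higher) and 1 in low lysine (Il9, higher). The shares called over all genes were 4.67%, 2.72% and 8.73%. Il21, a cytokine of helper cells, had another order of means than Il2: it had a mean of 9.63 in low leucine, against 7.27 in full medium (2.36 ± 0.37, adjusted p = 0.000431), and of 7.44 in low arginine, against that same 9.63 in low leucine (-2.19 ± 0.37, adjusted p = 0.00472). In low lysine, where Il2 was high, Il21 was at 6.51, below low leucine (low leucine minus low lysine 3.12 ± 0.37, adjusted p = 0.000238). Il7r, the receptor chain for the survival cytokine IL-7, fell with antigen in all 3 low media, opposite to Il2ra and Il2rb (-2.24 ± 0.25 in low arginine, -2.91 ± 0.22 in low leucine and -2.72 ± 0.22 in low lysine). Of 5 private receptor chains that pair with the gamma chain, 2 others, Il15ra and Il21r, rose in each low medium. The shares of all genes that rose were 17.2%, 21.8% and 18.4%.

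**Figure D4:**
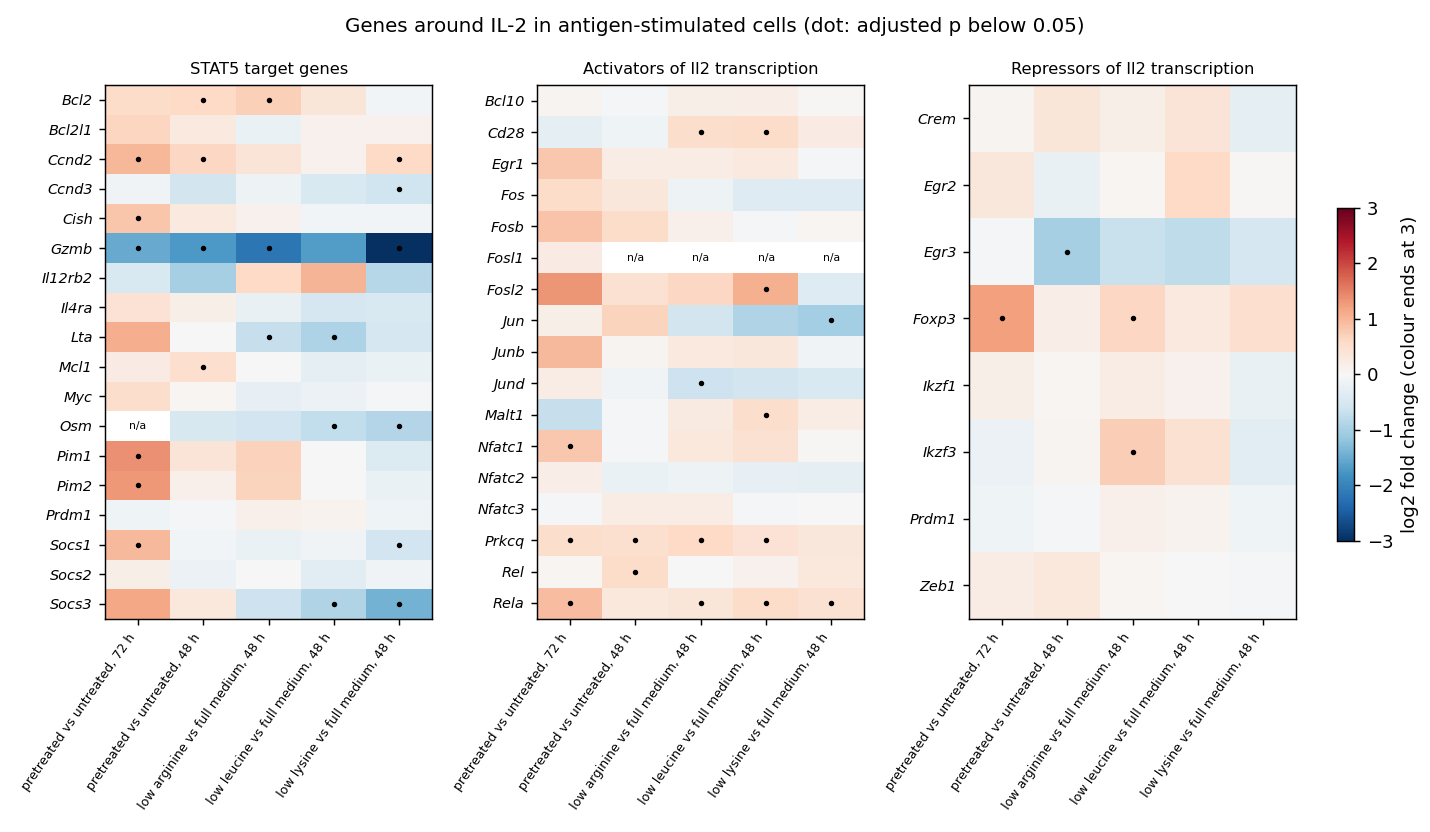
Log2 fold change (colour, ending at 3 in either direction) of STAT5 target genes, activators and repressors of Il2 transcription in cells given antigen, for the comparison named under each column; dots mark an adjusted p below 0.05 and n/a a gene with no value. Gzmb is lower in all 5 columns, with a dot in 4, and most cells of the activator panel have none.

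Over the 23 arrays at 48 h, the genes most like each member were named from 4994 genes whose 8 group means spanned at least 1 log2 unit. For Il2 these were Nfkb2 (Pearson r = 0.972), Cd274 (0.965), Bcl2l1 (0.959), Mettl1 (0.952) and Rel (0.95). Nfkb2, an NF-kappaB gene, had means of 9.58 on pretreated macrophages, 8.51 in low arginine, 8.90 in low leucine and 9.10 in low lysine, against 8.43 in full medium. For Il2ra they were Irf4 (0.993), Septin11 (0.991), Aldh18a1, Tnfrsf4 and Egr1 (0.99 each), and for Il2rb Socs1 (0.985), Mcm3 (0.984), Psmd14 (0.983), Cish (0.982) and Nr4a3 (0.981). Arrays with and without antigen form separate clusters for all of these genes, so the coefficients mostly describe that step.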

How the data were processed

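Expression had been measured on 23 MoGene-2_0-st arrays (48 h) and 9 HT_MG-430_PM arrays (72 h), each from 100 ng of RNA per the labels. The authors deposited log2 values for each probe set; RMA and Affymetrix Expression Console 1.1 are named in the submitters' processing notes. Which arrays were normalized together is not given in the sources used here.

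Of 41345 probe sets at 48 h, 23521 named 1 gene; of 45037 at 72 h, 28898 did. A gene was represented by its probe set with the highest mean. All groups of a platform entered 1 fit with limma 3.58.1 in R 4.3.3 (lmFit, eBayes with an intensity trend), two-sided, adjusted by Benjamini-Hochberg over all genes in each of 16 comparisons and 3 differences of antigen effects. Named genes were the members, at most 4 called genes per list and comparison, and the 5 most correlated genes per member. Cish and Socs1 were named beyond that limit for pretreated macrophages at 72 h. Genes without a value were left out of list counts. The members and lists were chosen with earlier results of these data known.

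Replicate numbers come from the sample titles. Across the 5000 brightest genes, the deviations of same-numbered arrays from their group means correlated above 0.1 in every pair for pretreated against untreated macrophages at 72 h (0.16 to 0.26) and low arginine against low leucine (0.29 to 0.39), so the numbers were taken to pair these arrays. At 72 h, however, replicate 3 on pretreated and replicate 3 on untreated macrophages belong to different runs of submitter numbers. The main fits held no block. The steps were tested on simulated data. The number of arrays limits the precision. Alternatives covered scaling, probe sets, the variance prior, the arrays fitted, dim genes, blocks and left-out arrays. Python 3.11.15, pandas 2.3.3 and matplotlib 3.10.9 made tables and plots.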

Additional observations from a re-analysis of the deposited data

Results flagged for a closer look

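The effect of antigen on Il2 was smaller in low arginine than in low lysine at 48 h, and the test of that difference itself passed (-2.76 ± 0.43 log2 units, limma adjusted p = 0.00617). Antigen raised Il2 in all 3 arrays of each medium, to between 7.83 and 8.86 in low arginine and between 10.51 and 11.02 in low lysine. Without antigen Il2 lay between 5.08 and 5.69 in low arginine and between 4.64 and 5.68 in low lysine, below the medians of those arrays, so neither rise is measured from a level known to be above background. Over 21 alternatives the difference lay between -3.08 and -2.46, and 18 of them passed. It was not called without low arginine, no antigen, replicate 1 (adjusted p = 0.139), with only the 4 groups concerned in the fit (adjusted p = 0.0511), or with a replicate block as well (adjusted p = 0.108).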

How the results depend on the processing

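Of 1062 alternative values for the 3 genes, 1034 stayed on the same side of the threshold, 15 lost a call, 13 gained one and 0 called values changed sign. Some values that were not called changed sign, such as Il2ra with pretreated against untreated macrophages at 72 h (main 0.28, lowest -0.06). Quantile normalization took Il2rb in low arginine against low lysine to 0.69 (adjusted p = 0.0727). Leaving out dim genes gave calls for Il2 in low leucine against full medium (1.02, adjusted p = 0.0339) and Il2rb on pretreated macrophages against low lysine (0.67, adjusted p = 0.0334). With only the compared groups fitted, Il2rb in low arginine was called against full medium (-0.29, adjusted p = 0.0276) and low leucine (0.67, adjusted p = 0.00545), Il2 in low leucine was called against full medium (1.02, adjusted p = 0.0063), and Il2rb in low arginine against low lysine (0.78, adjusted p = 0.061) and the antigen effect on Il2, low arginine minus low lysine (-2.76, adjusted p = 0.0511), were not. A replicate block in that setting, added after seeing the data, gave -0.29 (0.0109), 0.67 (0.000407) and 1.02 (0.00495) for the first 3, and for antigen effects on Il2 -2.05 (adjusted p = 0.0346) for low arginine minus low leucine and -2.85 (adjusted p = 0.108) for low arginine minus low lysine. The replicate block with all groups fitted changed no call of the 3 genes (Il2 at 72 h, pretreated against untreated: 4.74, adjusted p = 0.00111). Replicate numbers do not all follow the submitter runs in low lysine with antigen or on pretreated macrophages at 48 h. Either replicate block may therefore not pair those arrays. The submitter run as a fixed block could not be fitted for full medium or pretreated macrophages against low media; as a random block, also added later, it changed no call. The cause of these shifts was not tested.

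With 1 array left out, the values that crossed the threshold ranged from 0.82 to 1.32 for Il2 in low leucine against full medium, 0.62 to 0.93 for Il2rb in low arginine against low lysine, and 1.08 to 1.32 for Il2 on pretreated macrophages against low leucine. Il2rb on pretreated macrophages ranged from 0.45 to 0.79 against low leucine and 0.52 to 0.90 against low lysine, the F of the antigen effect on Il2 from 12.6 to 28.5, and its low arginine minus low lysine difference from -3.08 to -2.46. A group left with 1 array was assumed to vary like the others.

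Counts of all genes called moved more (main counts in brackets). Centring gave 12819 (6527) for antigen against none at 72 h, 12195 (5557) on pretreated macrophages and 95 (158) comparing low arginine to low leucine. It made 86.0% (54.3%) and 85.6% (52.0%) of calls higher in the first 2 comparisons, 75.9% to 83.0% (52.7% to 59.4%) for antigen at 48 h, where array medians shifted by -0.14 to -0.18, and 18.4% (28.6%) for low lysine against full medium. Quantile normalization gave 1234 (1936) for low lysine against full medium and 190 (416) for low leucine against low lysine. The share of calls that were higher became 48.0% (32.9%) for low arginine over low leucine, 64.1% (82.1%) for low arginine and 64.7% (84.6%) for low leucine over low lysine, 55.6% (41.4%) and 65.7% (78.6%) for pretreated macrophages over low leucine and low lysine, and 49.1% (59.4%) for antigen in low lysine. Fitting only the compared groups gave 1009 (1656) for pretreated against untreated macrophages at 72 h, 2472 (1036), 1654 (603) and 968 (1936) for low arginine, leucine and lysine against full medium, and 456 (748) and 116 (784) for pretreated macrophages against low arginine and low lysine. It gave 879 (158), 139 (715) and 50 (416) between the low media, or 1404, 228 and 77 with a replicate block as well. Leaving out dim genes gave 653 and the replicate block 638 for low leucine against low lysine. Differences of antigen effects gave 5 to 12 (3), 8 to 60 (32) and 1 to 38 (16) calls where a count moved by over 1.5 times. The counts so far do not include fits with 1 array left out. Those gave 1 to 9, 5 to 161 and 1 to 164 for the same differences. They gave 84 to 1414 (416) for low leucine against low lysine, 903 to 3183 (1936) for low lysine against full medium, and 495 to 2225 (1656) for pretreated against untreated macrophages at 72 h.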
